A study of Mus musculus with 6 samples.

Results

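Cyclins and the cyclin-dependent kinases (CDKs) they switch on were followed through 4 single-cell RNA sequencing (scRNAseq) libraries, made of CD8 T cells sorted from tumors and from the draining lymph nodes (LNs). The 10 genes were chosen by name, 6 cyclins (*Ccnd2*, *Ccnd3*, *Ccne1*, *Ccne2*, *Ccna2* and *Ccnb1*) and 4 kinases (*Cdk1*, *Cdk2*, *Cdk4* and *Cdk6*), out of 32285 genes in the count tables, and all 10 were counted in every library. The counts are of UMIs, short random tags that let each captured RNA molecule be counted 1 time. The tumors were grown from B16-OVA, a line of mouse melanoma cells that makes the model antigen ovalbumin, in C57Bl6 mice of both sexes. Control mice carried CD8-Cre and the Rosa26Tomato reporter, and CD8-IFNγRKO mice carried in addition IFNgR1flox/flox, so that the Cre, driven by the CD8α promoter in mature CD8 T cells, deletes in them the receptor chain that binds IFNγ. Mice of 6 to 10 weeks were engrafted with tumor cells, and cells positive for CD45, CD3, CD8 and Tomato were sorted after 12 days, as the series' design text gives it. For each tissue and genotype, 3 mice were pooled into 1 library of 5′ transcript ends, and T cell receptor (TCR) contigs were available for the 2 tumor libraries.

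A cell enters division when D-type cyclins pair with CDK4 or CDK6 and start to phosphorylate the retinoblastoma protein, which frees E2F factors. Cyclin E with CDK2 then carries the cell into S phase, cyclin A2 works with CDK2 and CDK1 through S and G2, and cyclin B1 with CDK1 drives mitosis. In T cells, D-type cyclins and CDK6 are induced after antigen receptor signaling, and resting T cells keep the S and mitotic cyclins almost silent. *Mki67* encodes Ki-67, a protein made by cycling cells.

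After filters on genes, mitochondrial UMIs and UMIs of *Cd2*, *Cd8a* and *Cd8b1*, 8636 CD8-IFNγRKO and 7103 control tumor cells and 6731 CD8-IFNγRKO and 6641 control LN cells were kept, and the median cell of each had 9402.5, 6308, 3863 and 4051 UMIs. The targeted gene, *Ifngr1*, was at 237 CPM (UMIs per 1000000 UMIs of the group) in CD8-IFNγRKO and 718 CPM in control tumors, and at 137 and 182 CPM in LN. It was lower in the CD8-IFNγRKO library in both tissues, and whether the counted 5′ ends lie in the deleted part is not given in the sources used here. Markers of CD8 T cells summed to between 4432 and 6631 CPM, while the 4 melanoma markers summed to at most 3.24 CPM. The 7 myeloid markers summed to 20.7 CPM in CD8-IFNγRKO and 73.7 CPM in control tumors, and the count of members past 1.5-fold in tumors was the same without cells that had 3 or more of them. Between 51 and 82 cell barcodes were shared by any 2 libraries, at most 1.23% of the cells of a library. Because each group was 1 library, no test was possible. Every interval below is an exact 95% interval that covers counting error only, and what differs between mice cannot be told apart from what differs between genotypes. A higher pooled level also cannot be told apart from a larger share of cells with the gene, except where cells are divided below.

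By the RefSeq annotation (GRCm38.p6), the members' D-type cyclin genes lie at chr6:127125162-127152188 (*Ccnd2*) and chr17:47505051-47599689 (*Ccnd3*), and their kinases at chr10:127063535-127067288 (*Cdk4*) and chr5:3341004-3531008 (*Cdk6*). The G1/S genes lie at chr7:38097984-38107490 (*Ccne1*), chr4:11190433-11204779 (*Ccne2*) and chr10:128697938-128705051 (*Cdk2*), and the later genes at chr3:36564865-36573038 (*Ccna2*), chr13:100778739-100786486 (*Ccnb1*) and chr10:69335146-69352912 (*Cdk1*).

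The promoters of 7 members were held in the RefSeq tables (GRCm38.p6). 4 of them are shown, since they belong to kinases and a cyclin of different steps, as the 150 bases before the transcript start on the gene's strand. Capitals mark the motifs searched on both strands in the 250 bases before the start: CCAAT, the CHR-like word TTTGAA, the E2F-like words TTTCCCGC, TTTCGCGC, TTTGCCGC and TTTGGCGC, and the E-box CACGTG. The windows are chr10:69352913-69353062 (minus strand) for *Cdk1*, chr13:100786487-100786636 (minus) for *Ccnb1*, chr10:128705052-128705201 (minus) for *Cdk2* and chr10:127063385-127063534 (plus) for *Cdk4*.
Cdk1: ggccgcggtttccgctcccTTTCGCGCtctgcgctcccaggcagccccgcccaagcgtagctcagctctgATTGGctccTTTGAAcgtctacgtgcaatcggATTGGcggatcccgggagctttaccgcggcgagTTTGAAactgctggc
Ccnb1: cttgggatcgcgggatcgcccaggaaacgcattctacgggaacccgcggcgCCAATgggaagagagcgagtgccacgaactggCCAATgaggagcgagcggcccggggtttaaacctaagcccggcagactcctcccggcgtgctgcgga
Cdk2: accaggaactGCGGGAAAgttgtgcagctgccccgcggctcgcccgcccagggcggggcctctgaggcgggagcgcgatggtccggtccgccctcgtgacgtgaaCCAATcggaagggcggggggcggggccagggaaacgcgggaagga
Cdk4: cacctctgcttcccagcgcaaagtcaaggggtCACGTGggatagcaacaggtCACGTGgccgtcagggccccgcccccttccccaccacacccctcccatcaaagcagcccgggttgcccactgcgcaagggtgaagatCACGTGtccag
Of the 32851 promoters in the table, 33.9% held CCAAT, 16.0% TTTGAA, 1.86% an E2F-like word and 6.02% CACGTG. The *Cdk1* promoter held 3 CCAAT, 1 of them upstream of the bases shown, 2 TTTGAA and 1 E2F-like word. That of *Ccnb1* held 2 CCAAT and that of *Cdk2* held 1 CCAAT and 1 E2F-like word, and all of these are among the bases shown. On the minus strand of a window, CCAAT is read as ATTGG and TTTCCCGC as GCGGGAAA. The *Cdk4* promoter held 4 E-boxes, 3 of them within the bases shown, and none of the other words. *Cdk6* had 1 E-box, *Ccnd3* had 1 CCAAT in 1 of its 2 start windows, and *Ccne1* had no match. The table had no entry for *Ccnd2*, *Ccne2* and *Ccna2*.

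LN and tumor cells differed first in which cyclins they held. In LN, the D-type cyclins among the members were present and *Ccna2*, *Ccnb1* and *Cdk1* were close to silent. *Ccnd2* stood at 193 CPM in CD8-IFNγRKO and 161 CPM in control LN, and at 59.1 and 67.3 CPM in the tumors, so that both LN libraries lay above both tumor libraries. The tumor over LN fold of *Ccnd2* was 0.417 (0.400 to 0.435) in control and 0.306 (0.295 to 0.318) in CD8-IFNγRKO cells. *Ccnd3*, the other D-type cyclin among the members, varied less, with 235 and 225 CPM in LN and 177 and 166 CPM in tumors. It too lay lower in tumors, by log2 -0.41 in CD8-IFNγRKO and -0.44 in control cells, within 1.5-fold.

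The mitotic genes ran the other way. *Ccna2* was counted with 76 and 71 UMIs in the whole CD8-IFNγRKO and control LN libraries, 2.64 and 2.37 CPM, against 161 and 106 CPM in tumors. *Cdk1* had 2.36 and 2.07 CPM in LN and 108 and 68.4 CPM in tumors. *Ccnb1* had 1.39 CPM (0.991 to 1.89) and 0.702 CPM (0.434 to 1.07) in LN and 61.9 and 37.6 CPM in tumors. For these 3 genes tumor cells thus lay 33.0-fold to 61.0-fold above LN cells of the same genotype. In control cells the fold was 44.5 (35.2 to 57.1) for *Ccna2*, 53.5 (34.9 to 86.7) for *Ccnb1* and 33.0 (25.7 to 43.2) for *Cdk1*. In CD8-IFNγRKO cells it was 61.0 (48.7 to 77.5), 44.6 (32.7 to 62.5) and 46.0 (36.2 to 59.2).

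*Cdk6* set itself apart from *Cdk4*, the kinase it shares its cyclins with. In CD8-IFNγRKO and control LN *Cdk6* stood at 14.9 and 10.8 CPM, and in the tumors at 85.0 and 59.1 CPM, 5.69-fold (5.16 to 6.28) and 5.46-fold (4.87 to 6.13) higher. *Cdk4* stood at 138 and 143 CPM in LN and 252 and 167 CPM in tumors, 1.82-fold (1.76 to 1.89) in CD8-IFNγRKO and 1.17-fold (1.13 to 1.21) in control cells, where the direction depended on the scaling, with a log2 ratio of 0.23 by CPM, 0.02 by the median ratio and -0.06 with TCR, ribosomal, mitochondrial and heat shock genes left out of the totals. Of the G1/S genes, *Ccne1* had 5.30 and 5.71 CPM in LN and 31.2 and 16.2 CPM in tumors. *Ccne2* had 1.32 and 1.40 CPM against 9.50 and 5.97 CPM, and *Cdk2*, the partner of both cyclins, 8.60 and 7.98 CPM against 25.3 and 13.8 CPM. All 3 G1/S genes were therefore higher in tumors than in LN in both genotypes.

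In control cells, 7 of 10 members were at least 1.5-fold higher in tumor than in LN and 1, *Ccnd2*, was lower, where 27.1% of 10913 genes with at least 100 UMIs were higher and 25.2% lower. In CD8-IFNγRKO cells, 8 members were higher and 1 lower, against 29.5% and 26.8% of 11287 genes. Scaling by the median ratio of well-expressed genes in place of CPM moved these 2 comparisons by 0.20 and 0.23 on the log2 scale, and *Ccnd3* then passed 1.5-fold downward in both.

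**Figure D1:**
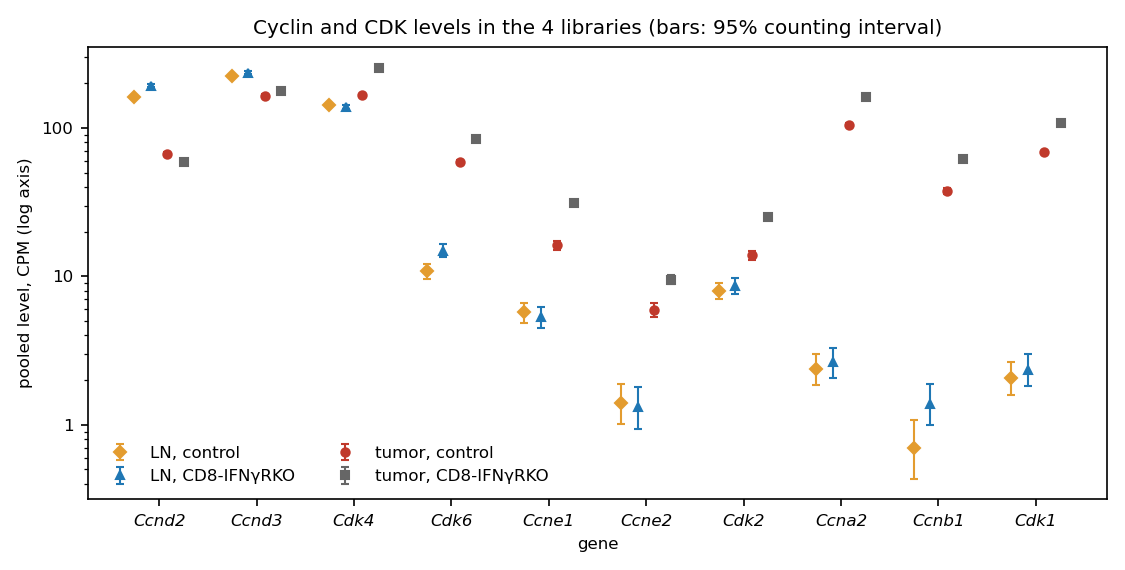
Pooled level of each cyclin and CDK gene (CPM, log axis) in control LN, CD8-IFNγRKO LN, control tumor and CD8-IFNγRKO tumor libraries, with bars for the 95% counting interval. Both LN libraries lie above both tumor libraries for Ccnd2 and Ccnd3, and at 0.702 to 2.64 CPM for Ccna2, Ccnb1 and Cdk1, which stand at 37.6 to 161 CPM in tumors.

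At equal depth, the share of cells with a UMI was compared for 3 of the genes. After each cell was thinned to 1600 UMIs, with 278, 701, 41 and 237 cells of CD8-IFNγRKO and control tumor and CD8-IFNγRKO and control LN left out as shallower, *Ccna2* was found in 15.7% (14.9 to 16.5) of CD8-IFNγRKO and 8.47% (7.80 to 9.17) of control tumor cells. In LN it was found in 0.120% (0.0516 to 0.235) and 0.156% (0.0749 to 0.287) of cells, and these intervals overlapped. Without thinning, 40.7% and 21.1% of tumor cells had a *Ccna2* UMI. *Cdk6* was found in 11.8% and 8.70% of thinned tumor cells and in 2.45% and 1.69% of thinned LN cells. *Ccnd2* was found in 9.94% and 9.95% of thinned tumor cells, nearly the same share, and in 24.6% (23.6 to 25.6) and 21.0% of LN cells. No sorted cell type lacked these genes, and the part of free RNA in these shares was not tested. LN cells without *Mki67* held 11 and 5 *Ccna2* UMIs in 6692 and 6599 cells. They cannot bound free *Ccna2* RNA in tumors, since the LN libraries held 76 and 71 *Ccna2* UMIs and the tumor libraries 15112 and 6283.

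Between genotypes in tumors, 7 of the 10 genes were at least 1.5-fold higher in the CD8-IFNγRKO library, and none was lower. Scaled by the median ratio, 5 were, since *Cdk4* (log2 0.57) and *Ccna2* (0.58) came to lie just under the limit. Of 11329 genes with at least 100 UMIs, 7.94% were as much higher and 6.21% as much lower. On the log2 scale, the members had a median ratio between genotypes of 0.63 and all genes with at least 100 UMIs 0.02. Among the members, the G1/S genes *Ccne1* and *Cdk2* differed most. *Ccne1* was 1.93-fold higher (1.79 to 2.08) and *Cdk2* 1.82-fold higher (1.68 to 1.98), while *Ccne2*, from 893 and 355 UMIs, was 1.59-fold higher (1.41 to 1.81). The mitotic genes lay within the interval of *Ccne2*, with 1.65-fold (1.57 to 1.73) for *Ccnb1*, 1.58-fold (1.53 to 1.64) for *Cdk1* and 1.52-fold (1.48 to 1.57) for *Ccna2*.

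The members' D-type cyclins and their kinases differed among themselves. *Cdk4* was 1.51-fold higher (1.47 to 1.54), just past the limit, and *Cdk6* 1.44-fold higher (log2 0.52, 0.47 to 0.58), just short of it. *Ccnd3* had a log2 ratio of 0.10 (0.06 to 0.13), and *Ccnd2* was the only member below 0, at -0.19 (-0.25 to -0.13). Kinases of the G1 complexes were thus higher in CD8-IFNγRKO tumor cells. Their cyclins among the members stood at 0.878 times (*Ccnd2*, 0.842 to 0.914) and 1.07 times (*Ccnd3*, 1.04 to 1.10) the control level.

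In LN, 0 members were at least 1.5-fold lower and 1, *Ccnb1*, was higher (log2 0.98, 0.19 to 1.82). Its 40 and 21 UMIs came from 18 and 17 cells, and 28 of the 40 from 7 cells with *Mki67*. The interval takes each UMI as independent, so that it can be too narrow. Without the cells with the 8% highest totals the log2 ratio was 0.03. *Ccnb1* and *Ccne2* did not reach 100 UMIs there, and of 10080 genes that did, 0.546% were 1.5-fold higher and 0.913% lower. *Ccnd2* was higher in CD8-IFNγRKO LN by log2 0.26 (0.20 to 0.31) and *Cdk6* by 0.47 (0.25 to 0.68), and *Cdk4* stood at -0.05 (-0.11 to 0.01). The 5 other S and mitotic genes had intervals that included 0, the widest that of *Ccne2* (-0.76 to 0.58), so that a difference of up to about those bounds was not detectable at this depth. The median over the 10 members was 0.13.

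**Figure D2:**
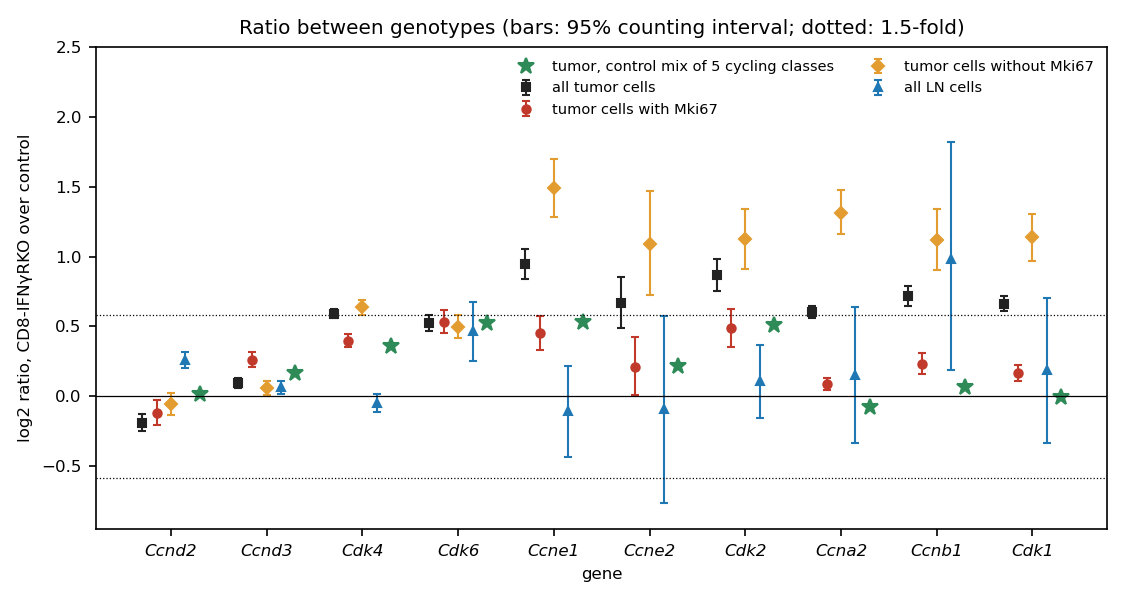
Log2 ratio of CD8-IFNγRKO over control for each gene in all tumor cells (squares), tumor cells with (circles) and without (diamonds) a Mki67 UMI and LN cells (triangles), with 95% counting intervals, and in tumor cells at the control mix of 5 cycling classes (stars). Dotted lines mark 1.5-fold. In cells with Mki67 no gene passes the line. The stars of Ccna2, Ccnb1 and Cdk1 lie between -0.08 and 0.06, and those of Ccne1, Cdk6 and Cdk2 at 0.53, 0.52 and 0.51.

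The tumor libraries also differed in how many cells were cycling. A *Mki67* UMI was found in 3965 of 8636 CD8-IFNγRKO and 1866 of 7103 control tumor cells, 45.9% and 26.3%, and in 39 and 42 LN cells. At 1600 UMIs per cell the shares were 17.8% (17.0 to 18.6) and 10.0% (9.29 to 10.8) in tumors. In LN they were 0.359% (0.230 to 0.533) and 0.250% (0.143 to 0.405), with overlapping intervals. With all UMIs the LN shares were 0.579% and 0.632%, in the opposite order. Cells with *Mki67* were deeper, with medians of 13863 and 12597.5 UMIs against 6296 and 5350 UMIs without it.

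Within each tumor, cells with *Mki67* held more of the S and mitotic genes. In control tumors, *Ccna2* stood at 222 CPM with and 13.7 CPM without *Mki67*, 16.2-fold (14.7 to 17.9), *Cdk1* at 139 and 12.6 CPM, and *Ccnb1* at 75.6 and 7.63 CPM. In CD8-IFNγRKO tumors, *Ccna2* stood at 236 and 34.2 CPM, 6.92-fold (6.52 to 7.34), *Cdk1* at 156 and 27.8 CPM, and *Ccnb1* at 88.8 and 16.6 CPM. Of the G1/S genes, *Ccne1* stood at 26.9 and 7.72 CPM in control and 36.8 and 21.7 CPM in CD8-IFNγRKO tumors, with *Cdk2* at 21.5 and 7.81 CPM and at 30.2 and 17.0 CPM. For all 5 of these genes the fold between genotypes was smaller with *Mki67* than without it. *Ccnd2* ran opposite to the mitotic genes, with a log2 ratio of with over without *Mki67* of -0.53 (-0.63 to -0.44) in control and -0.59 (-0.67 to -0.52) in CD8-IFNγRKO cells. *Ccnd3* was lower too, by log2 -0.43 and -0.22. *Cdk6* barely differed, with 0.03 (-0.07 to 0.12) and 0.06 (-0.00 to 0.13), while *Cdk4* was higher with *Mki67* by 0.70 and 0.46.

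By the 1.5-fold limit, 7 members were higher with *Mki67* in control tumors, where 8.82% of genes were, and 0 were lower, where 3.92% of genes were. In CD8-IFNγRKO tumors 6 were higher, where 6.2% of genes were, and 1, *Ccnd2*, was lower, where 5.15% were. The 6 became 5 at 1600 UMIs per cell, where *Ccne1* went from log2 0.76 to 0.35. With at least 2 *Mki67* UMIs asked for they became 4, with *Ccne1* and *Cdk2* at 0.56. In control tumors the 7 became 6 at 1600 UMIs, with *Cdk4* at 0.57, and stayed 7 with at least 2 *Mki67* UMIs.

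Cells with *Mki67* also allowed tumor and LN to be compared among cycling cells, although LN held only 39 CD8-IFNγRKO and 42 control cells of this kind. *Ccna2* stood at 171 and 129 CPM in them (65 and 66 UMIs in 15 and 18 cells) and *Cdk1* at 158 and 102 CPM (60 and 52 UMIs in 18 and 23 cells). The tumor over LN fold of *Cdk1* was then 0.991 (0.769 to 1.30) in CD8-IFNγRKO and 1.37 (1.04 to 1.83) in control cells, where it was 46.0 and 33.0 over all cells. *Ccnb1* stood at 73.6 CPM in CD8-IFNγRKO but 21.6 CPM in control LN cells with *Mki67*, from 28 and 11 UMIs in 7 cells each. Its tumor over LN fold was 1.21 (0.834 to 1.82) and 3.51 (1.96 to 7.04). The intervals take each UMI as independent, so that they can be too narrow where the UMIs come from so few cells.

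*Cdk6* by contrast stayed low in LN cells with *Mki67*, at 15.8 and 17.6 CPM from 6 and 9 UMIs, against 86.3 and 59.7 CPM in tumor cells with *Mki67*. Its tumor over LN fold was 5.47 (2.51 to 14.9) and 3.38 (1.78 to 7.41) with *Mki67* and 5.54 (5.00 to 6.15) and 5.47 (4.86 to 6.18) without it. In CD8-IFNγRKO cells with *Mki67*, *Cdk6* was the 1 member that was 1.5-fold higher in tumor and *Ccnd2* the 1 that was lower, where 27.2% and 24.1% of genes were. In control cells with *Mki67*, 3 members were higher (*Cdk6*, *Ccna2* and *Ccnb1*) and 3 lower (*Ccnd2*, *Ccnd3* and *Cdk2*), where 24.9% and 20.2% of genes were. Without *Mki67*, 7 members were higher and 1 lower in CD8-IFNγRKO (26.5% and 25.3% of genes) and 5 higher and 1 lower in control cells (24.8% and 26.2%).

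The median ratio between genotypes was smaller in cells with *Mki67* than in those without it. The cells with *Mki67* still differed in phase between genotypes, as given below. Among them, 0 of 10 members were 1.5-fold higher or lower in CD8-IFNγRKO, where 4.1% of genes were higher and 4.85% lower. The median log2 ratio was 0.25. The largest was *Cdk6*, 0.53 (0.45 to 0.62), followed by *Cdk2* (0.49, 0.35 to 0.63), *Ccne1* (0.45, 0.33 to 0.58) and *Cdk4* (0.40, 0.36 to 0.44), and the intervals of these 4 overlapped except that of *Cdk6* with that of *Cdk4*. The mitotic genes had 0.23 (0.16 to 0.31) for *Ccnb1*, 0.17 (0.11 to 0.22) for *Cdk1* and 0.09 (0.04 to 0.13) for *Ccna2*. Their direction turned when cells were thinned to 1600 UMIs and *Mki67* was read from the thinned counts, to -0.06 for *Ccnb1*, -0.09 for *Cdk1* and -0.02 for *Ccna2*. In cells without *Mki67*, 7 members were 1.5-fold higher in CD8-IFNγRKO, where 9.25% of genes were, and none was lower, where 4.66% were. The median was 1.11. *Ccne1* stood at 21.7 and 7.72 CPM there, 2.81-fold (2.44 to 3.25), *Ccna2* at 34.2 and 13.7 CPM, 2.49-fold (2.23 to 2.78), and *Cdk1* at 27.8 and 12.6 CPM, 2.20-fold (1.96 to 2.47). The part of free RNA in these levels was not tested. With all UMIs, *Cdk6* had almost the ratio it had with *Mki67*, 0.50 (0.41 to 0.58). This was less clear at 1600 UMIs per cell, with *Mki67* read from the thinned counts. There *Cdk6* was found in 10.8% of CD8-IFNγRKO and 9.67% of control cells with *Mki67*, with overlapping intervals. Without *Mki67* the shares were 12.04% and 8.59%, with intervals apart. *Ccne1* was found in 4.7% and 4.52% of thinned cells with *Mki67*, and the intervals of *Cdk2* and *Cdk4* overlapped there too.

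A cell without a *Mki67* UMI can still be cycling, and 62.7% of CD8-IFNγRKO but 44.0% of control UMIs came from cells with *Mki67*. When the CD8-IFNγRKO levels were reweighted to the control share of *Mki67* cells, the median log2 ratio of the members went from 0.63 to 0.43, and 2 of the 7 genes, *Ccne1* (0.81) and *Cdk2* (0.72), stayed past 1.5-fold. With both the levels and the class read from thinned counts, where each cell has the same weight, the median went from 0.78 to 0.65. There 6 genes, all of the 7 but *Cdk4*, were past 1.5-fold before and after. The 2 readings thus differ, and they differ in levels as well as in class.

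A finer division used 85 genes of S phase (40) and G2/M (45) that include no member. Tumor cells, thinned to 1600 UMIs, fell into 5 classes by UMIs of these genes (0 to 3, 4 to 6, 7 to 11, 12 to 19 and 20 or more). CD8-IFNγRKO cells held 16.1%, 17.1%, 17.6%, 27.0% and 22.4% in these classes and control cells 32.2%, 30.4%, 14.5%, 11.1% and 11.9%. The class limits and this division were set after the data had been seen. At the control mix of the 5 classes, none of the 7 genes stayed past 1.5-fold. *Ccna2* came to a log2 ratio of -0.08, *Cdk1* to -0.01 and *Ccnb1* to 0.06, where they had 0.61, 0.66 and 0.72 before. *Cdk6* (0.52), *Ccne1* (0.53), *Cdk2* (0.51) and *Cdk4* (0.36) lay highest, *Ccne2* came to 0.22, *Ccnd3* to 0.17 and *Ccnd2* to 0.01, and the median over the members was 0.19. The lists hold genes of the same phases as *Ccna2*, *Ccnb1* and *Cdk1*, so that near equality of these genes at this mix is partly built in. The classes also sum S and G2/M UMIs, so that cells of unlike phase can share a class.

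The classes show this gene by gene. *Cdk6* stood at 85.3, 79.6, 94.0, 89.8 and 76.7 CPM from the lowest to the highest class in CD8-IFNγRKO cells and at 62.0, 59.6, 60.1, 57.8 and 54.0 CPM in control cells. Its level varied little over these classes, which do not separate S from G2/M. The CD8-IFNγRKO library lay higher by log2 0.42 to 0.65 in each of the 5 classes, with every interval above 0. This was not particular to *Cdk6*. *Cdk2* (1.08, 0.90, 0.74, 0.35 and 0.21), *Cdk4* (0.32, 0.44, 0.50, 0.36 and 0.23) and *Ccne1* also had every interval above 0. *Ccnd3* lay above 0 in each class, with an interval that included 0 in the lowest class. *Ccna2* stood at 2.94 CPM in the lowest and 349 CPM in the highest class of CD8-IFNγRKO cells and at 1.21 and 389 CPM in those of control cells. In the highest class it was lower in CD8-IFNγRKO cells (-0.16, -0.21 to -0.10), and in the lowest class higher (1.29, 0.36 to 2.25), from 27 and 17 UMIs. *Ccne1* was higher in CD8-IFNγRKO cells in each class, by 0.73, 1.08, 0.71, 0.49 and 0.24, the excess being smallest where cycling genes were highest. *Ccnd2* had 87.9 and 75.8 CPM in the lowest and 41.1 and 37.5 CPM in the highest class of CD8-IFNγRKO and control cells, with log2 ratios from -0.12 to 0.22 and no common direction between genotypes.

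**Figure D3:**
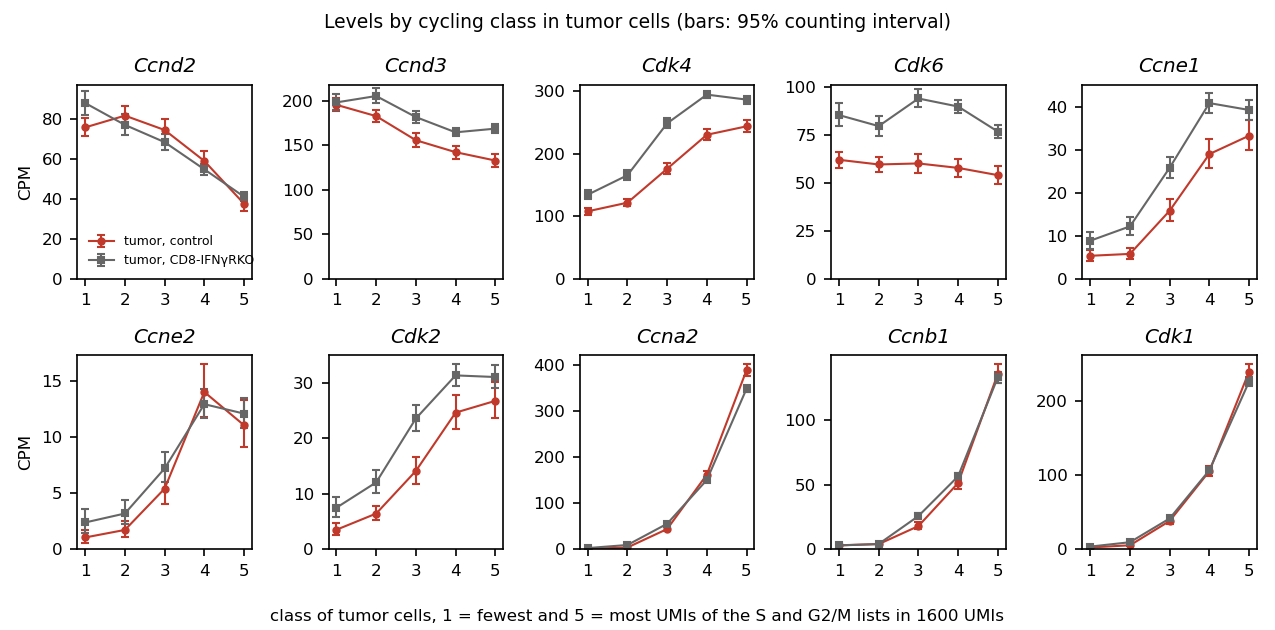
CPM of each gene in tumor cells against the class of UMIs of the S and G2/M lists (1 = 0 to 3, 5 = 20 or more of 1600), control (circles) and CD8-IFNγRKO (squares), with 95% counting intervals. Ccna2, Ccnb1 and Cdk1 are highest in class 5, where the libraries lie close together (349 and 389 CPM for Ccna2). The CD8-IFNγRKO lines of Ccnd3, Cdk4, Cdk6, Ccne1 and Cdk2 lie above the control lines in all 5 classes.

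Among tumor cells with *Mki67*, the G1/S genes and the mitotic genes were highest toward opposite ends of a ranking from S to G2/M. Cells of both libraries together were ranked by the ratio of UMIs of the S and G2/M lists and cut into 4 phase classes of about equal size. The lists hold genes of the same phases as these members, so that the opposite order is partly built in. *Ccne2* was highest in class 1, with 17.5 CPM in CD8-IFNγRKO and 19.1 CPM in control cells, and had 3.85 and 2.48 CPM in class 4. *Ccne1* was highest at 51.4 CPM (class 2) and 38.4 CPM (class 1) and had 14.0 and 9.91 CPM in class 4, and *Cdk2* stood at 41.5 and 31.9 CPM in class 1 and 16.0 and 12.3 CPM in class 4. The G1/S genes were therefore lowest at the G2/M end in both libraries. *Ccnb1* had 23.3 and 18.0 CPM in class 1 and 211 and 174 CPM in class 4, 9.07-fold and 9.66-fold more. *Ccna2* was 4.11-fold and 3.68-fold and *Cdk1* 2.88-fold and 2.59-fold higher in class 4 than in class 1. Of the members' D-type cyclins and their kinases, *Ccnd3* varied least, 1.08-fold and 1.16-fold between its highest and lowest class. *Ccnd2*, *Cdk4* and *Cdk6* were lowest in class 4 in both libraries.

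The genotypes filled the phase classes unevenly. CD8-IFNγRKO cells held 27.9%, 25.6%, 23.3% and 23.2% of their *Mki67* cells in classes 1 to 4, and control cells 18.9%, 23.6%, 28.7% and 28.8%. More of the CD8-IFNγRKO cells thus lay in the class in which *Ccne2* and *Cdk2* were highest. Within phase class 1 the log2 ratio between genotypes was -0.12 (-0.46 to 0.23) for *Ccne2*, 0.25 (0.02 to 0.49) for *Ccne1* and 0.66 (0.49 to 0.83) for *Cdk6*. *Cdk6* was higher in CD8-IFNγRKO cells in each phase class, by 0.66, 0.35, 0.38 and 0.55, with every interval above 0. *Ccnb1* was also higher in each, by 0.37, 0.77, 0.71 and 0.28, the most in the classes between the ends. It passed 1.5-fold in those classes, though over all cells with *Mki67* its ratio was 0.23. *Ccna2* (0.02, 0.25, 0.34 and 0.18) and *Cdk1* (0.09, 0.27, 0.43 and 0.24) lay above 0 too, with intervals that included 0 in class 1 only. Of the members, only *Ccnd2* and *Ccne2* lay below 0 in any phase class.

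**Figure D4:**
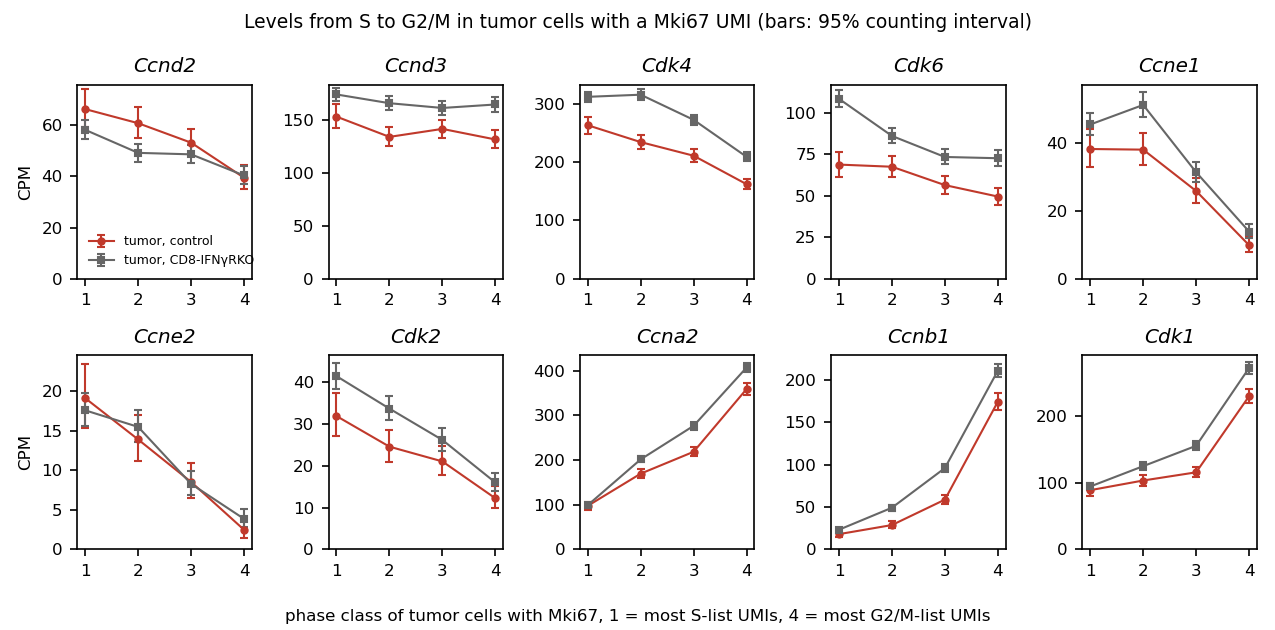
CPM of each gene in tumor cells with a Mki67 UMI, by phase class from S (1) to G2/M (4), control (circles) and CD8-IFNγRKO (squares), with 95% counting intervals. Ccne1, Ccne2 and Cdk2 are lowest in class 4, Ccnb1 is 9.07-fold and 9.66-fold higher there than in class 1, and Ccnd3 stays nearly level.

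Counted cell by cell at 1600 UMIs, *Ccna2* was found in a larger share of cells with *Cdk1* than of cells without it. The share with *Cdk4* differed little between cells with and without *Ccnd2*, and between cells with and without *Ccnd3*. Of CD8-IFNγRKO tumor cells with a *Cdk1* UMI, 35.1% (32.1 to 38.3) also had *Ccna2*, against 13.2% of those without. In control tumors the shares were 38.1% (33.4 to 43.1) and 6.47%. This was not limited to partners. Of CD8-IFNγRKO and control cells with the other cyclin *Ccnb1*, 37.6% and 34.7% had *Ccna2*, against 14.1% and 7.56% without. With *Cdk2*, a partner of cyclin A2, the shares were 20.3% and 16.3%, against 15.5% and 8.35% without. What lies behind these shares was not tested. *Cdk4* was found in 26.2% (23.3 to 29.4) of CD8-IFNγRKO cells with *Ccnd2* and 29.0% of those without, and in 21.4% (18.2 to 24.7) and 20.6% of control cells. With and without *Ccnd3*, it was found in 27.7% and 29.1% of CD8-IFNγRKO cells and in 20.1% and 20.8% of control cells. *Ccnd2* was found less with the mitotic cyclin, in 4.96% (3.32 to 7.10) of CD8-IFNγRKO cells with *Ccnb1* and 10.3% of those without, and in 3.76% (1.64 to 7.27) and 10.2% of control cells. *Cdk1* was found about as often with *Cdk6* as without it, in 11.2% (9.34 to 13.4) and 11.3% of CD8-IFNγRKO cells. In control tumors it was found in 39 of 557 cells with *Cdk6* (5.03% to 9.45%) and 6.24% of those without.

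*Tcf7*, with which the study is concerned, encodes TCF1, a transcription factor of stem-like T cells. The paper also lists *Tcf7* as a naive-like marker, and its flow cytometry gated stem-like cells on TCF1 together with PD-1. No UMI of the PD-1 gene was asked for here, so that cells with *Tcf7* need not all be stem-like. Cells with a *Tcf7* UMI after thinning numbered 445 in CD8-IFNγRKO and 185 in control tumors, of which 4.94% (3.12 to 7.39) and 3.78% (1.53 to 7.64) had *Mki67*, against 18.5% and 10.2% of the other cells. *Cdk1* stood at 20.8 and 14.1 CPM in them and at 111 and 69.7 CPM in the others, and *Ccna2* at 46.5 and 31.2 CPM against 164 and 107 CPM. *Cdk6* was lower with *Tcf7* in both libraries by the same amount, log2 -1.08 (-1.39 to -0.78) and -1.08 (-1.67 to -0.54). *Ccnd2* was higher with *Tcf7* in CD8-IFNγRKO cells, 116 against 57.6 CPM (log2 1.01, 0.82 to 1.19), and in control cells stood at 81.6 against 67.1 CPM (0.28, -0.05 to 0.60), an interval that included 0.

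**Figure D5:**
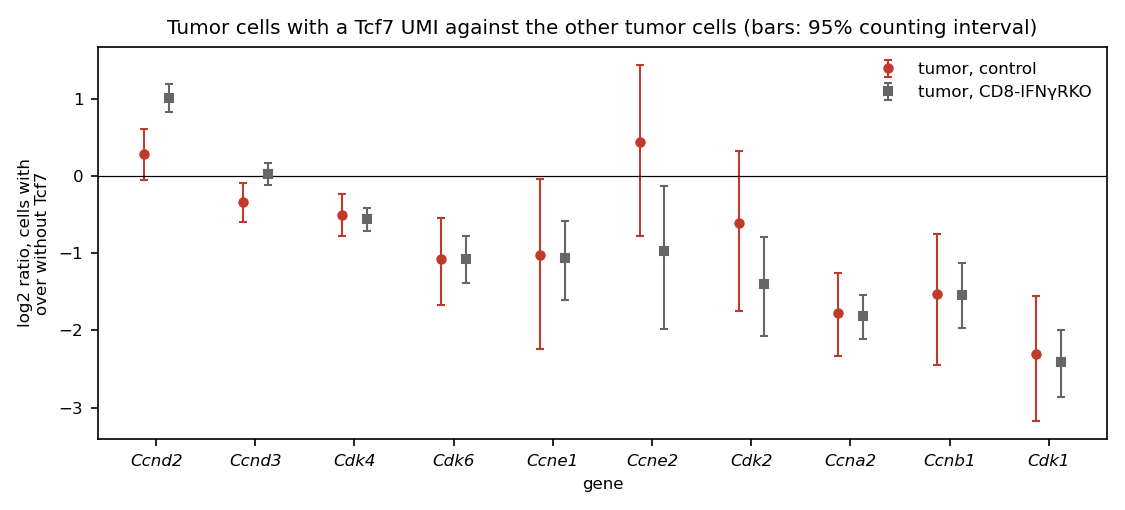
Log2 ratio of pooled CPM in tumor cells with over without a Tcf7 UMI at 1600 UMIs, control (circles) and CD8-IFNγRKO (squares), with 95% counting intervals. Ccnd2 is the only gene whose interval lies above 0, in CD8-IFNγRKO cells at 1.01, and Cdk1 is lowest, at -2.41 and -2.30.

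Levels were also compared by clone size, in cells with both TCR chains. Cells of clones seen once numbered 364 in CD8-IFNγRKO and 184 in control tumors, those of clones of 2 to 9 cells 161 and 202, and those of clones of 10 or more cells 5412 and 3898. In this order of clone size, *Ccnd2* stood at 133, 75.9 and 54.0 CPM in CD8-IFNγRKO cells and at 85.0, 82.4 and 60.6 CPM in control cells, whose first 2 values had overlapping intervals. *Cdk6* ran the other way, at 20.6, 53.9 and 86.5 CPM and at 36.0, 49.3 and 56.9 CPM. In control cells the interval of clones of 2 to 9 cells (37.4 to 63.7 CPM) overlapped that of the smaller and that of the larger clones. *Cdk1* stood at 12.0, 113 and 115 CPM and at 25.1, 71.4 and 72.1 CPM, so that clones of 2 to 9 cells already stood at the level of the larger ones. The share of cells with *Mki67* at 1600 UMIs was 4.27%, 11.5% and 18.3% in CD8-IFNγRKO and 3.31%, 9.09% and 8.96% in control cells, and the median depth was 3997.5, 5528 and 10503 UMIs and 4041, 4767 and 6324.5 UMIs.

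The other genes of the machinery were counted by list. Of all genes with at least 100 UMIs, 7.94% were 1.5-fold higher and 6.21% lower in CD8-IFNγRKO tumors. Of 13 other cyclins with at least 100 UMIs, 1 was 1.5-fold higher in CD8-IFNγRKO tumors, the mitotic cyclin *Ccnb2* (129 and 81.8 CPM, log2 0.66), and 2 were lower, *Ccng1* (111 and 173 CPM, -0.65) and *Ccni* (204 and 308 CPM, -0.59). Of 12 other CDKs, 0 passed in either direction, and their median was -0.10. Of 19 regulators of CDKs, 5 were higher and 2 lower, with the CDK-activating phosphatase *Cdc25a* at 22.8 and 12.8 CPM (0.84), the CDK1-inhibiting kinase *Pkmyt1* at 42.5 and 24.2 CPM (0.81), and the CDK4 and CDK6 inhibitor genes *Cdkn2a* at 14.0 and 24.6 CPM (-0.82) and *Cdkn2b* at 2.80 and 4.97 CPM (-0.83). Of 19 genes of the retinoblastoma and E2F axis, 3 were higher and 0 lower, led by *Mybl2* (0.89) and *E2f1* (0.83). Of 10 genes linked to quiescence, 4 were lower and 0 higher, led by the antiproliferative gene *Btg1* (442 and 835 CPM, -0.92). In LN none of the genes of these 5 lists with at least 100 UMIs was past the limit, where only 0.546% of all such genes were higher and 0.913% lower. The S and G2/M lists had 28 of 40 and 15 of 45 genes higher in tumors, 0 lower, with medians of 0.74 and 0.50, and the members' own median of 0.63 lay between them.

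The genes whose levels over 8 groups (4 libraries, with and without *Mki67*) were most like those of a member were sought among 5781 genes. The measure was the root mean square difference of centred log2 levels, with 10 CPM added. *Cdk1* was nearest to *Cdca8*, a chromosomal passenger gene (0.10), and *Ccnb1* to *Kpna2* (0.19) and *Cdkn3* (0.22). *Ccnd2* was nearest to *Gimap6* (0.10) and *Gpr183* (0.11), *Ccne1* to *Ran* (0.08), and *Cdk2* to *Rcc1* (0.09) and *Wdhd1* (0.10). *Cdk6* was nearest to *Eno1*, a glycolytic enzyme (0.08), and its closest fellow member, *Ccne1*, was at 0.87. The LN groups with *Mki67* hold only 39 and 42 cells, so that these ranks rest partly on few UMIs.

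The spans of 5 members (*Cdk2*, *Ccne2*, *Ccna2*, *Ccnd3* and *Cdk4*) overlap protein-coding genes in the RefSeq table, and whether counting used the strand is not given in the sources used here. *Cdk2* shares 7114 bases with *Pmel*, a melanocyte gene with 0.436 CPM in CD8-IFNγRKO and 0.941 CPM in control tumors. *Ccne2* shares 5622 bases with *Ints8* (31.9 and 26.1 CPM), and *Ccna2* 863 bases with *Exosc9* (37.5 and 32.0 CPM). Heat shock genes summed to 11477 and 7404 CPM in CD8-IFNγRKO and control tumors and to 8715 and 6885 CPM in LN. The 7 members higher in CD8-IFNγRKO tumors were still 7 when TCR, ribosomal, mitochondrial and heat shock genes were left out of the totals, and the part of heat shock in the members' ratios was not tested otherwise.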

How the data were processed

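The 4 gene expression libraries and, for clones, the 2 TCR libraries were analysed. The authors aligned reads to the 10x mouse reference (mm10) with Cell Ranger 6.0.0, and what they deposited are unnormalized counts (UMIs of each gene in each cell barcode) and filtered TCR contigs with their UMI counts. Following the filters in the paper's methods, a barcode needed between 200 and 6000 genes, a mitochondrial share of UMIs up to 3%, its top gene at 20% of UMIs or less, and a UMI of each of *Cd2*, *Cd8a* and *Cd8b1*. No doublet caller was run and no cluster was removed. UMIs were summed per group and divided by the total (CPM) with Python 3.11.15, numpy 2.4.6 and scipy 1.17.1. Exact 95% intervals were Poisson for a level, binomial given the summed UMIs for a ratio and Clopper-Pearson for a share. On tumor counts of 11329 genes simulated from the Poisson model they assume, the intervals held the true ratio of 94.5% of changed genes. This checks the computation only, since the simulation had no spread between cells, clones or mice. A gene was counted as higher or lower past 1.5-fold. Shares of all genes and counts of lists were over genes with at least 100 UMIs in both groups together, and the members were counted whatever their UMIs. Cells of a clone had identical CDR3 nucleotide sequences and V and J segments in the TRA and the TRB chain with most UMIs. Plots were made with matplotlib 3.10.9.

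The members, gene lists and divisions of cells were chosen with earlier results of these data known. Named besides the members were at most the 4 genes of each list with the largest tumor ratio, the 3 genes most like each member, and genes whose spans overlap a member's. Library totals were 93995655 and 59497796 UMIs in CD8-IFNγRKO and control tumors and 28841136 and 29934686 in LN, so that genes of a few UMIs in LN have wide intervals. The series' design text gives day 12, and the paper's text a range of days that starts there. The alternatives tried were other scaling, weights, filters, thinning, pseudocounts and limits.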

Additional observations from a re-analysis of the deposited data

Results flagged for a closer look

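*Ccnd2* differed between genotypes in opposite directions in the 2 tissues. The log2 ratio of CD8-IFNγRKO over control was -0.19 in tumors, from 59.1 and 67.3 CPM, and 0.26 in LN, from 193 and 161 CPM, and neither counting interval included 0. With 1 library per tissue and genotype, the difference between tissues was not tested. At the control mix of 5 cycling classes the tumor ratio was 0.01, and at 1600 UMIs per cell it was -0.05.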

How the results depend on the processing

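The 7 genes higher in CD8-IFNγRKO tumors kept their direction in all 63 values under the settings tried on all cells, the control mix left out, and 59 of these stayed past 1.5-fold. Their count was 5 when scaled by the median ratio, without *Cdk4* (0.57) and *Ccna2* (0.58), and 6, without *Cdk4*, after thinning (0.56) and without the filter on *Cd2*, *Cd8a* and *Cd8b1* (0.58). The count went from 7 to 0 with a 2-fold limit, and to 0 at the control mix of S and G2/M list UMIs, an alternative added after the data had been seen. At that mix *Ccna2* (-0.08) and *Cdk1* (-0.01) turned direction. In LN the count of higher genes went from 1 to 0 with equal weight per cell, without the barcode filters, without the filter on *Cd2*, *Cd8a* and *Cd8b1*, without the cells with the 8% highest totals, with 1 CPM added and at 2-fold, and the count of lower genes from 0 to 1 (*Ccne2*) after thinning. The ratios of *Ccna2* and *Cdk1* in LN ranged from -0.44 to 0.20 and from -0.29 to 0.19. Tumor over LN, the lower count went from 1 to 2 in both genotypes when scaled by the median ratio and when TCR, ribosomal, mitochondrial and heat shock genes were left out of the total. In control cells the higher count went from 7 to 6 with those genes left out (*Cdk2* at 0.51) and after thinning (*Cdk2* at 0.33). In tumor cells with *Mki67*, the ratio between genotypes turned direction after thinning for *Ccna2*, *Ccnb1* and *Cdk1*, and for *Ccna2* also without the cells with the 8% highest totals (-0.12). The share of CD8-IFNγRKO tumor cells with *Mki67*, 17.8%, was 45.9% with all UMIs, 12.3% at 1000 UMIs and 16.8% without the filter on *Cd2*, *Cd8a* and *Cd8b1*. That of control cells, 10.0%, was 26.3% with all UMIs, 7.41% at 1000 UMIs and 9.15% without the highest totals. The cause of these moves was not tested. Of the other counts, 135 stayed within 1.5 times. The share of all genes past 1.5-fold in tumors was 14.2% at 100 UMIs, 19.2% at 20 and 37.2% with no minimum, and in LN 1.46%, 5.84% and 25.04%. No paired analysis was possible because each group was 1 library and the labels give no replicate numbers. Depth limits the LN values of *Ccne2* and the mitotic genes, which rest on 21 to 76 UMIs per library.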
